A study of Mus musculus with 6 samples.

Results

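The 33 genes described here are erythroid genes, taken from a fixed list of haem synthesis enzymes, iron and glycine importers, globins and red cell membrane proteins. They were listed by name, and the list was chosen with earlier results of these data known. Expression was measured on 6 arrays of mouse megakaryocytes, which shed platelets, after culture of fetal liver cells in thrombopoietin and isolation on a bovine serum albumin gradient. The control group held 2 FOG1+/- cultures, replicates 1 and 2, and 1 FOG1+/+ culture, replicate 3. The other group held 3 cultures labelled FOG1-/- ki/ki, named FOG1 ki/ki here, and the labels do not describe the ki allele. All mice had a mixed C57BL/6xSv129 background, and the labels do not say whether a culture pooled embryos. A gene was read from the brightest probe set, by mean over the 6 arrays, that the platform annotation assigned to it alone. Of the 33 genes, 31 had such a probe set, among 18193 genes measured on the array in this way, and Epb41 and Ahsp had none. A filter that left out the lower 50% of probe sets by mean signal passed 20 of the 31, among 11284 genes tested. Since the filter reads the mean over all arrays, a dim gene can pass it through 1 bright array, and Car1 did so.

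Haem is built in a chain of enzymatic steps, which begin with the joining of glycine and succinyl-CoA by an ALA synthase and end with the insertion of iron by ferrochelatase. Red cell precursors make haem and globin together in bulk, with their own ALA synthase, Alas2, while other cells use Alas1. FOG1 is the product of Zfpm1 and works by binding GATA factors, which control many globin, haem and membrane genes of red cell precursors and also the genes of megakaryocytes.

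The replicate 3 arrays stood apart in how their values were deposited: no more than 4% of them had at most 1 decimal place, against 100% on the other 4 arrays. They also had the lowest median signals, 7.75 in control and 5.93 in FOG1 ki/ki, and control replicate 3 was the only FOG1+/+ culture. As number 3 holds 1 array of each group, the block and the differences within numbers compare arrays deposited alike.

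Outside the selection and singled out after their values were seen, 3 probe sets assigned jointly to the adult alpha-globin genes Hba-a1 and Hba-a2 read lower in FOG1 ki/ki within each replicate number, by 2.66 to 6.73 times in signal. The largest ratio comes from the dimmest of them, which read only 19.9 in FOG1 ki/ki replicate 1. The groups of all 3 probe sets overlapped, while 11.2% of all 11284 genes tested had groups without overlap, in either direction. Of the listed genes tested, the beta-globin gene Hbb-b2 and the last haem enzyme, Fech, stood below control on all arrays, as did Sptb and the dim Aqp1. Alad, Ppox and Slc25a38 stood above it. A probe set shared by Hbb-b2 and other adult beta-globin genes did not follow, with a log2 difference of 0.12 and both directions within numbers. The shared alpha-globin probe sets passed the test only with the replicate block, against limma adjusted p = 0.621 to 0.858 without it, and a probe set of Hba-a2 alone differed by -0.15 and passed neither. None of the listed genes passed with or without the block. Of the genes known for red cell precursors, Alas2, Slc4a1, Rhag and Hba-x read under 5 on all 6 arrays. Others read higher, with Hbb-b2 at 783 to 1977, Epor at 176 to 801 and Hbb-y at 43.4 to 933.

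With limma on log2(signal + 16), 0 of the 20 genes tested passed an adjusted p of 0.05, where 0.151% of all 11284 genes tested did. With the replicate number as a block, 0 of 20 passed again, where 0.86% of all genes did. With no filter, over 18193 genes, 0 of 31 passed, where 0.0055% of all genes did, or 0.044% with the block. Unadjusted p was under 0.05 for 2 of the 20 genes without the block, Hbb-b2 and Fech, against 6.68% of all genes, and 9 of 20 with it, against 18.4%. In the group means 12 of the 20 lay below control, 60% against 45.1% of all genes tested, and the median log2 difference was -0.25 against 0.03. Within replicate numbers 1, 2 and 3 the medians of the 20 genes were -0.21, -0.09 and -0.18. Over all genes tested they were -0.001, 0.04 and 0.04. Without both replicate 3 arrays the median was -0.19, 12 genes again lay below control, and 2 passed with the block, Hbb-b2 and Tmcc2. In that fit 339 of all 11284 genes tested passed. Over all 31 measured genes, with no filter, 18 lay below control, 58.1% against 49% of all genes measured. The median was -0.05 against 0.003. The groups did not overlap for 4 of the 20 genes in the lower direction, where 4.94% of all genes did so, and for 3 in the higher direction, where 6.3% did. Of the 20 genes, 10 were lower in FOG1 ki/ki in all 3 replicate numbers, where 19.5% of all genes were, and 4 were higher in all 3, where 24.8% were.

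**Figure D1:**
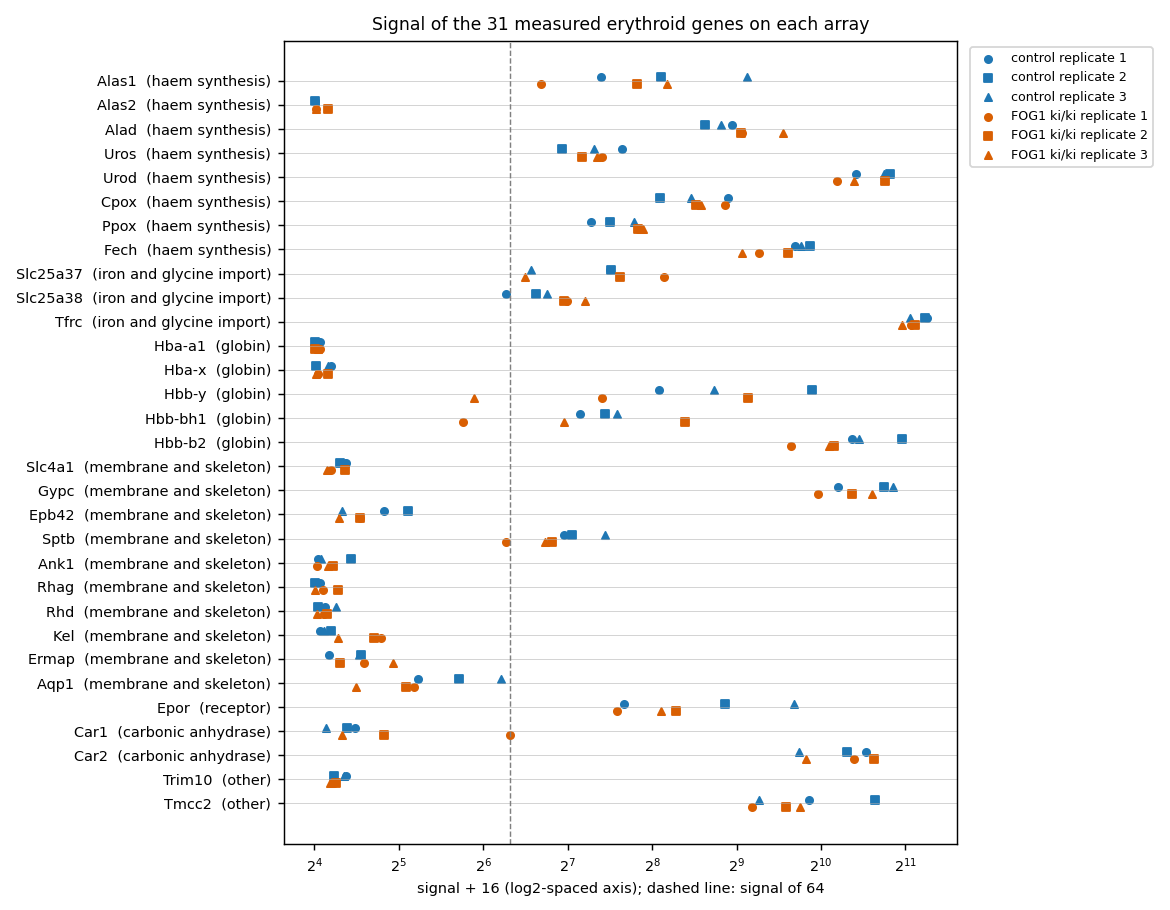
Signal plus 16 (log2-spaced horizontal axis) of the 31 measured genes, grouped by role, with 1 point per array, blue for control and orange for FOG1 ki/ki, and the symbol giving the replicate number. The dashed line marks a signal of 64, below which a value is called near background, and 12 genes lie left of it on all 6 arrays. Positions of different genes are not comparable, since each probe set has its own brightness.

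The globins carry oxygen, as pairs of alpha-type and beta-type chains. In the mouse the alpha cluster holds the embryonic gene Hba-x and the adult genes Hba-a1 and Hba-a2, and the beta cluster the embryonic genes Hbb-y and Hbb-bh1 and the adult beta genes. The 250 bases before the RefSeq start sites of 3 of them are shown, for an adult and an embryonic gene of the alpha cluster and for the embryonic beta-type gene with the largest difference among the listed genes tested. Sequences are from RefSeq (GRCm38.p6), 5′ to 3′, and 23 of the 33 genes had an entry. Capitals mark 4 motifs searched on both strands, and overlapping matches run together. GATAA is the core that GATA factors read, CACCC is that of Klf1 and its relatives, CCAAT is a common promoter motif and so is TATAA.
Hba-a1, chr11:32283422-32283671, plus strand: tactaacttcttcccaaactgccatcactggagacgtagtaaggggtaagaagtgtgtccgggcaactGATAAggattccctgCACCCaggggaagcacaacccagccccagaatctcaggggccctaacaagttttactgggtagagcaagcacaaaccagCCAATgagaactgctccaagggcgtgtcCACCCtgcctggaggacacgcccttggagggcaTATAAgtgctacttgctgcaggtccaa
Hba-x, chr11:32276350-32276599, plus strand: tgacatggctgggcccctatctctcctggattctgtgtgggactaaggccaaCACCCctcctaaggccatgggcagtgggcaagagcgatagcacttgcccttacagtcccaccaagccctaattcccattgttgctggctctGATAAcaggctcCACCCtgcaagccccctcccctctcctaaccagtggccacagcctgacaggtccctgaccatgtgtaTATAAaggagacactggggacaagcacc
Hbb-y, chr7:103853208-103853457, minus strand: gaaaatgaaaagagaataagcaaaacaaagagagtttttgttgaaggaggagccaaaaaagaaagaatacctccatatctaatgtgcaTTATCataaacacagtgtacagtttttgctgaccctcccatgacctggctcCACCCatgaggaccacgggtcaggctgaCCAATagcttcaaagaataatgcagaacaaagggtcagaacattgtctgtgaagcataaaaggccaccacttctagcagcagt
In Hba-a1 the matches begin 182 bases (GATAA), 167 and 60 bases (CACCC), 88 bases (CCAAT) and 27 bases (TATAA) before the start. Hba-x holds GATAA at 107 bases, and Hbb-y holds it at 162 bases on the other strand. Over the 23 genes with an entry, counting the window farthest upstream for each, 12 hold GATAA on either strand, against 22.6% of all 32851 windows. CACCC was found in 17 of the 23 against 52% of all windows, CCAAT in 11 against 33.8% and TATAA in 6 against 22.8%. A match describes the letters and not a bound site.

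Hba-a1, an adult alpha-globin gene, had only 1 probe set of its own, and it read between 0.1 and 0.7 on all 6 arrays. Another 3 probe sets are assigned to Hba-a1 and Hba-a2 together, so they fall outside the selection, and they were singled out after their values were seen. The brightest by mean read 912, 2767 and 832 in control replicates 1, 2 and 3 and 201, 1041 and 159 in FOG1 ki/ki replicates 1, 2 and 3. Each FOG1 ki/ki array was thus below the control array of its number, by 4.55, 2.66 and 5.23 times, while the groups overlapped, since FOG1 ki/ki replicate 2 lay above control replicates 1 and 3. The next read 1081, 2608 and 739 in control and 211, 926 and 126 in FOG1 ki/ki. The dimmest read 134, 801 and 119 in control and 19.9, 189 and 18.2 in FOG1 ki/ki, where replicates 1 and 3 were near background, under 64. In all 3 the replicate 2 array was the highest of its group, and since all 3 read the same pair of genes they are no replicates of each other.

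Fitted over all 22518 probe sets past the filter, of which 0.0666% were called, these 3 probe sets had log2 differences of -1.92 (brightest, limma adjusted p = 0.692), -2.05 (next, limma adjusted p = 0.621) and -2.01 (dimmest, limma adjusted p = 0.858). With the replicate block, where 0.533% were called and 0.284% in the lower direction, all 3 fell, with SEs of 0.19, 0.20 and 0.18 and limma adjusted p = 0.0265, 0.0263 and 0.0208. Leaving out both arrays of 1 number with the block kept all 3 past the threshold, except the dimmest without the replicate 2 arrays (limma adjusted p = 0.106). Such fits called more features in general. In the fit by gene, 229, 130 and 339 of 11284 genes passed without numbers 1, 2 and 3, against 97 with all arrays. The share of all probe sets called in them is not given. A further probe set is assigned to Hba-a2 alone. It read 1796, 1421 and 1443 in control and 1539, 1365 and 1275 in FOG1 ki/ki, a log2 difference of -0.15 (blocked limma adjusted p = 0.48). Within numbers it was lower in FOG1 ki/ki each time, by -0.22, -0.06 and -0.18. The Hba-a2 probe set and the shared ones therefore disagreed in size but not in direction, and which transcripts each of them reads was not tested. The array maker marks each of the 3 shared probe sets, by a suffix to its name, as able to read more than 1 transcript.

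Hbb-b2, an adult beta-globin gene, read 1303, 1977 and 1382 in control replicates 1 to 3 and 783, 1127 and 1077 in FOG1 ki/ki. All FOG1 ki/ki arrays lay below all control arrays, at means of 1554 ± 369 for control against 995 ± 186 (SD, n = 3 each). On the log2 scale it differed by -0.63 (SE 0.21, limma adjusted p = 0.544, blocked 0.0723). Leaving out both replicate 3 arrays brought it past the threshold with the block (log2 difference -0.76, limma adjusted p = 0.0138), while leaving out the pair of number 1 or 2 gave limma adjusted p = 0.134 and 0.202. A probe set assigned jointly to Hbb-bt, Hbb-bs, Hbb-b2 and Hbb-b1, which encode the adult beta chains of different mouse haplotypes, did not follow this order. It read 2017, 3992 and 2663 in control and 3277, 3507 and 2376 in FOG1 ki/ki, a log2 difference of 0.12 (blocked limma adjusted p = 0.808). A second, dim probe set of Hbb-b2 alone differed by -0.72.

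Hbb-y, the embryonic epsilon-type globin, had the largest SE of the 20 genes tested, 0.80. It read 255, 933 and 409 in control and 153, 546 and 43.4 in FOG1 ki/ki. Each FOG1 ki/ki array lay below the control array of its number, and the groups overlapped. The log2 difference was -1.42 with a 95% interval from -3.28 to 0.43 (limma adjusted p = 0.916, with the replicate block 0.176), and the differences within numbers were -0.68, -0.75 and -2.84. Its other 2 probe sets differed by -1.53 and -1.16. Hbb-bh1, the other embryonic beta-type gene, read 125, 158 and 176 in control and 38.2, 319 and 108 in FOG1 ki/ki. Its arrays did not share a direction: FOG1 ki/ki was lower in numbers 1 and 3 and higher in number 2, and the groups differed by -0.36 on the log2 scale (SE 0.60, limma adjusted p = 0.999). Its other probe sets, at -0.42 and -0.29, showed the same order within numbers. Hba-x, the embryonic alpha-type gene, read between 0.2 and 2.4 on all arrays.

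**Figure D2:**
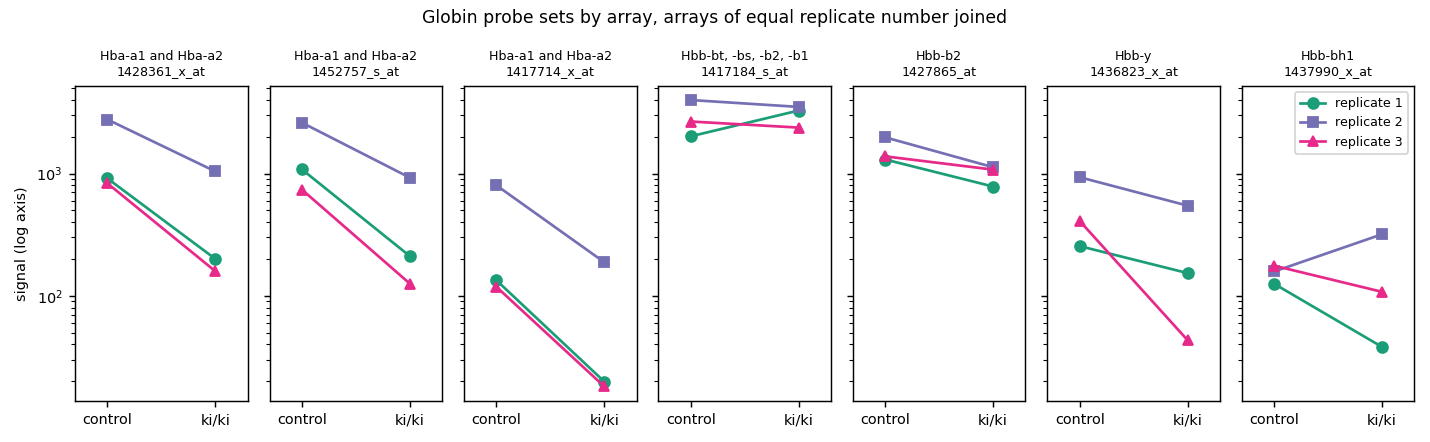
Signal (log axis) of 7 globin probe sets, with control at the left and FOG1 ki/ki at the right of each panel and arrays of equal replicate number joined by a line. All 3 lines fall in the panels of the shared alpha-globin probe sets, Hbb-b2 and Hbb-y, while the shared adult beta-globin probe set and Hbb-bh1 have lines in both directions.

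Of the haem synthesis enzymes, 7 passed the filter, among them Alas1. Both ALA synthase promoters are shown, that of the housekeeping gene and that of the gene of red cell precursors, with the same motifs in capitals.
Alas1, chr9:106247955-106248204, minus strand: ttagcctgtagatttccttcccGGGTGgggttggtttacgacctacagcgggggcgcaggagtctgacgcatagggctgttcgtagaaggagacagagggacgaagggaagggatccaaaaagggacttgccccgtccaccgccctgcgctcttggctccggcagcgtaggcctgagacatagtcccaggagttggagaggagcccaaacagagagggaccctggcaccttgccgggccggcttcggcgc
Alas2, chrX:150547167-150547416, plus strand: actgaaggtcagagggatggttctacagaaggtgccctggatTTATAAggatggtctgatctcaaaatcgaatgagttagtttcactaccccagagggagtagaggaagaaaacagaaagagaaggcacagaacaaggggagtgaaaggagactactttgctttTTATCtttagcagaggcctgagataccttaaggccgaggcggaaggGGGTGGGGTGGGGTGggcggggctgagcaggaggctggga
The Alas1 window, which lies before the more upstream of its RefSeq starts, holds CACCC once, on the other strand, 228 bases before the start. The Alas2 window holds GATAA on the other strand at 86 bases and CACCC on the other strand at 40, 35 and 30 bases.

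Alas2, the ALA synthase of red cell precursors, read between 0.1 and 1.9 on all arrays. Alas1, the housekeeping ALA synthase, read 152, 259 and 542 in control and 87, 210 and 273 in FOG1 ki/ki. Within each number the FOG1 ki/ki array was lower, but control replicate 1 lay below FOG1 ki/ki replicates 2 and 3. The log2 difference was -0.65 with a 95% interval from -1.88 to 0.58 (limma adjusted p = 0.979, blocked 0.161). Single arrays moved this value: it was -0.19 when control replicate 3 was dropped, -0.21 when the first FOG1 ki/ki array was, and -1.05 when control replicate 1 was. The brightest probe set of Alas1 can read other transcripts too, by its suffix, and its other probe set differed by -0.60. By their suffixes the same holds for the brightest probe sets of Urod, Fech, Hbb-y, Hbb-bh1, Tmcc2 and Slc4a1.

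Alad, which joins ALA molecules into porphobilinogen, read 478, 379 and 434 in control and 520, 515 and 734 in FOG1 ki/ki. All FOG1 ki/ki arrays were above all controls, with a log2 difference of 0.43 (95% interval -0.08 to 0.93, limma adjusted p = 0.863, blocked 0.224). Uros, uroporphyrinogen III synthase, averaged 144 ± 38.7 in control against 143 ± 13.5 (SD, n = 3 each), or 0.02 on the log2 scale (95% interval -0.63 to 0.67). Urod, the decarboxylase that follows, read 1349, 1796 and 1700 in control and 1151, 1720 and 1329 in FOG1 ki/ki, a log2 difference of -0.21 (limma adjusted p = 0.986, blocked 0.304). Its groups overlapped, and each FOG1 ki/ki array was below the control of its number.

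Cpox and Ppox encode the oxidases of coproporphyrinogen and protoporphyrinogen. Cpox had a log2 difference of 0.17 with overlapping groups and 1 of 3 numbers lower. Ppox read 139, 165 and 205 in control and 213, 212 and 221 in FOG1 ki/ki. Its groups did not overlap, with a log2 difference of 0.33 (95% interval -0.24 to 0.90, limma adjusted p = 0.97, blocked 0.363). Fech, the ferrochelatase that inserts iron, read 809, 921 and 853 in control and 602, 765 and 519 in FOG1 ki/ki. It was the only one of these enzymes with all FOG1 ki/ki arrays below all controls, and it differed by -0.46 on the log2 scale (SE 0.19, limma adjusted p = 0.718, blocked 0.146). Other Fech probe sets differed by -0.41 and -0.17, and a further one read under 5 throughout. Of the 7 enzymes, 3 lay below control and 4 above, and within all 3 replicate numbers Alas1, Urod and Fech were lower and Alad and Ppox higher. The second brightest probe sets of Alas1 and Fech were also lower in all 3 numbers. That of Urod was higher in number 2 (0.05), as was a further one of Fech (0.24). Those of Alad and Ppox, both dim, were lower in number 3 (-0.09 and -0.67).

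Iron and glycine reach the pathway through a receptor and mitochondrial carriers. Slc25a38, a mitochondrial glycine carrier, read 61.4, 82.4 and 92.3 in control and 111, 108 and 131 in FOG1 ki/ki. The groups did not overlap, with a log2 difference of 0.50 (95% interval -0.13 to 1.12, limma adjusted p = 0.893, blocked 0.251). Slc25a37, the mitochondrial iron importer mitoferrin 1, read 165, 167 and 78.6 in control and 266, 181 and 74.1 in FOG1 ki/ki. Here the arrays split by number, with both replicate 3 arrays the lowest of their group, and the log2 difference was 0.22 (limma adjusted p = 0.999).

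Tfrc, the transferrin receptor that brings iron into cells, averaged 2308 ± 170 in control against 2101 ± 116 (SD, n = 3 each). Its log2 difference of -0.13 had the narrowest interval of the 20 genes, from -0.39 to 0.12 (limma adjusted p = 0.98). This brightest probe set was lower in all 3 numbers. Other Tfrc probe sets gave different sizes, -0.39 and -0.80, and both were higher in FOG1 ki/ki in number 2 (0.18 and 0.19). The array's control probe set near the 3' end of the Tfrc transcript read 538, 358 and 293 in control and 424, 355 and 141 in FOG1 ki/ki. The control probe set near its 5' end read under 64 on 5 of 6 arrays, so no ratio of the ends is given.

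**Figure D3:**
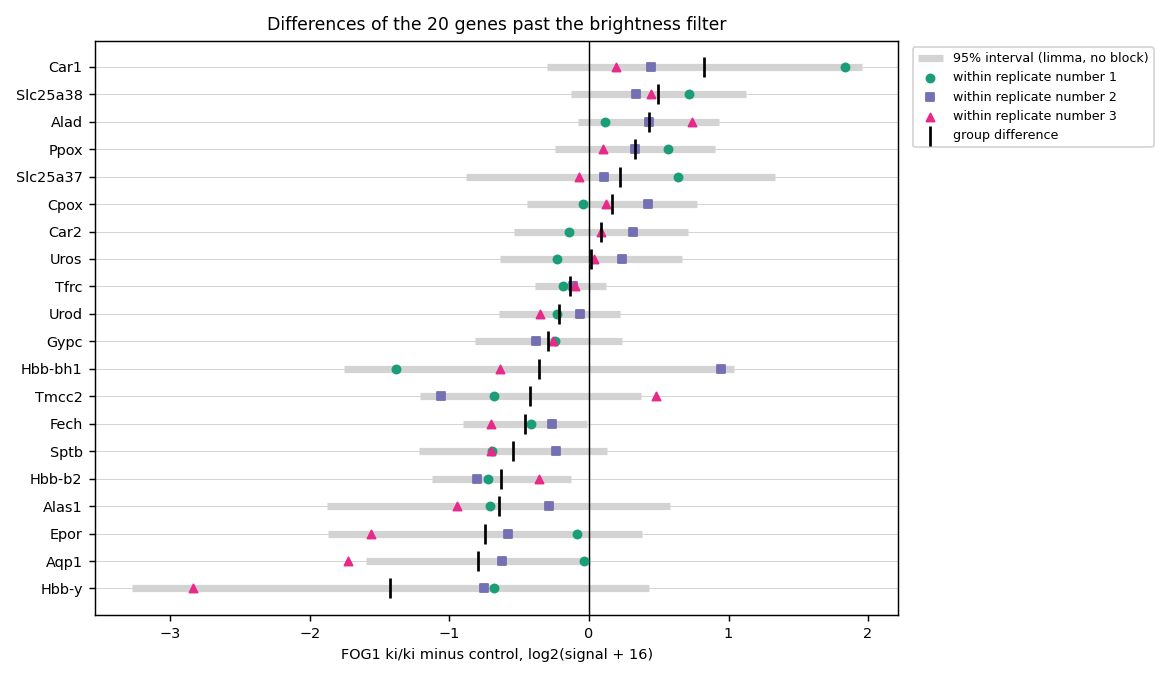
Differences between FOG1 ki/ki and control on the log2(signal + 16) scale for the 20 genes past the filter, ordered by size. Coloured points are the differences within replicate numbers, black ticks the group differences and grey bars their 95% limma intervals without the block. Only the bars of Hbb-b2 and Fech lie wholly on one side of 0.

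The red cell membrane is held by a spectrin network tied to the anion exchanger and glycophorins. Spectrin beta, Sptb, read 109, 117 and 157 in control and 61.1, 96.5 and 90.3 in FOG1 ki/ki. All FOG1 ki/ki arrays were below all controls, with a log2 difference of -0.55 (95% interval -1.22 to 0.13, limma adjusted p = 0.892, blocked 0.236), while a second, dimmer probe set differed by -0.19. Gypc, glycophorin C, read 1164, 1700 and 1837 in control and 983, 1306 and 1537 in FOG1 ki/ki. The groups overlapped, and the differences within numbers were close together at -0.24, -0.38 and -0.25 (log2 difference -0.29, limma adjusted p = 0.971, blocked 0.17).

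Aqp1, a water channel, was near background on all arrays, with 21.4, 36.3 and 58.3 in control and 20.4, 18 and 6.45 in FOG1 ki/ki. Its groups did not overlap, and its log2 difference of -0.80 (limma adjusted p = 0.756) was -1.34 with a pseudocount of 1 and -0.37 with one of 64. The anion exchanger Slc4a1 read between 1.82 and 4.8, Epb42 (protein 4.2) between 3.67 and 18.5, and the ankyrin Ank1 between 0.4 and 5.7. The blood group genes Rhag, Rhd and Ermap read no higher than 3.4, 3.11 and 14.5. Kel, another blood group gene, read 0.8 to 11.6, with all FOG1 ki/ki arrays above all controls but far under 64. None of these 7 passed the filter, so their levels are not told from background.

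Epor, the receptor of erythropoietin, read 188, 451 and 801 in control and 176, 296 and 260 in FOG1 ki/ki. The largest gap was between the replicate 3 arrays, and the groups overlapped. The log2 difference was -0.74 (95% interval -1.87 to 0.38, limma adjusted p = 0.945, blocked 0.246), with -0.09, -0.58 and -1.56 within numbers. The carbonic anhydrases Car1 and Car2 hydrate carbon dioxide, and Car1 is typical of red cells. Car1 read 6.4, 4.9 and 1.56 in control and 64, 12.4 and 4.12 in FOG1 ki/ki, so that a single array, FOG1 ki/ki replicate 1, reached 64. Car2 averaged 1186 ± 317 in control against 1259 ± 340 (SD, n = 3 each), or 0.08 on the log2 scale (95% interval -0.54 to 0.71). Tmcc2 read 912, 1585 and 602 in control and 564, 750 and 845 in FOG1 ki/ki, lower in numbers 1 and 2 and higher in number 3 (log2 difference -0.42, limma adjusted p = 0.978). With the block it passed without the replicate 3 arrays (log2 difference -0.87, limma adjusted p = 0.025), but not without those of number 1 (-0.29, limma adjusted p = 0.683) or 2 (-0.10, limma adjusted p = 0.939). Trim10 read 2.27 to 4.8.

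Other erythroid and haem genes were taken from a companion list of 49 names, of which 39 were tested. With limma 0 of the 39 passed in either fit. Unadjusted p was under 0.05 for 4 of them, or 10.3% against 6.68% of all genes tested, and for 8 with the block, 20.5% against 18.4%. In the group means 22 of 39 lay below control, 56.4% against 45.1%, with a median of -0.04. Klf1, the master regulator of red cell genes, read 43.7, 20.1 and 3.04 in control and 101, 162 and 78.7 in FOG1 ki/ki. All FOG1 ki/ki arrays were above all controls (log2 difference 1.86, limma adjusted p = 0.305, blocked 0.0655), the opposite direction to the shared alpha-globin probe sets. Tspan33, a tetraspanin of erythroid precursors, had a log2 difference of 2.18 (blocked limma adjusted p = 0.058) and Icam4, a red cell adhesion protein, 0.91 (blocked limma adjusted p = 0.0915), again with no overlap of the groups. Lmo2, a partner of GATA factors, differed by 0.35, Xk by -0.43 and Hebp1, a haem-binding protein, by -0.83. The groups of Lmo2 and Xk did not overlap, while those of Hebp1 did. Several of these were near background: Xk read under 64 on 6 arrays, Icam4 on 4, Klf1 and Hebp1 on 3 each and Tspan33 on 2. Gata1 differed by -0.13 and Zfpm1 by 0.11 (limma adjusted p = 0.999 each). Since the labels do not describe the ki allele, the Zfpm1 signal does not check the genotypes.

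All 10 measured megakaryocyte markers read 64 or more on at least 1 array. Their summed signal was 19042 to 25848 in control and 17136 to 21837 in FOG1 ki/ki. Reaching 64 does not by itself single out the labelled cell type. It also held for 7 of 7 neutrophil, 9 of 11 monocyte and macrophage, 6 of 7 fibroblast and 6 of 7 mast cell markers. All 10 megakaryocyte markers lay below control in the group means, at a median log2 difference of -0.20, beside the -0.25 of the 20 listed genes. Of 8 measured erythroid markers, which are 7 of the listed genes and Klf1, 4 reached 64 on any array, and the sum was 1547 to 2457 in control and 1128 to 1607 in FOG1 ki/ki. By gene, 3 of the 8 lay below control and the median was 0.03, the other direction than the sum. That sum consists mostly of Hbb-b2 and Epor, while Alas2, Slc4a1, Rhag and the probe set of Hba-a1 alone were near 0 in both groups. In such bulk samples fewer cells of a type and less RNA per cell cannot be told apart. Monocyte and macrophage markers, lower in FOG1 ki/ki for 10 of 11 genes, summed to 5668 to 10141 in control and 2221 to 7713 in FOG1 ki/ki. Fibroblast markers, lower for 7 of 7, summed to 202 to 6315 and 133 to 2661. The replicate 2 array was the highest of each group for the fibroblast, erythroid, macrophage, neutrophil and hepatocyte sums. The same held for the shared alpha-globin probe sets and Hbb-y. Hepatocyte markers, with Alb and Ttr near 0, summed to 329 to 490 and 156 to 449. Mast cell markers, higher for 7 of 7, summed to 224 to 2877 and 5476 to 6328. Neutrophil markers, all 7 of which reached 64, summed to 11933, 14104 and 2684 in control and 8435, 14122 and 3852 in FOG1 ki/ki, with both replicate 3 arrays the lowest. Endothelial markers summed to 988, 1334 and 1566 in control and 1418, 1802 and 1678 in FOG1 ki/ki, higher in all 3 numbers with overlapping groups. The part of these other cells in the results was not tested.

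**Figure D4:**
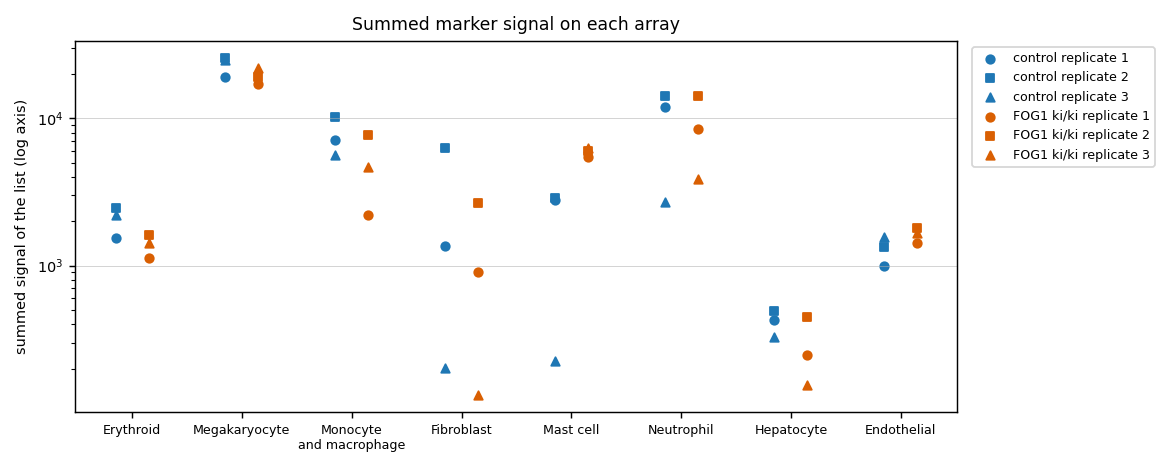
Summed signal (log axis) of 8 marker lists on each array, blue for control and orange for FOG1 ki/ki, with the symbol giving the replicate number. The erythroid sums are 1547 to 2457 in control and 1128 to 1607 in FOG1 ki/ki, and the macrophage, fibroblast and mast cell sums move between arrays as well.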

How the data were processed

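The authors deposited a linear intensity for each probe set on each array. The submitters' processing notes name MAS5, without a version. Each array had a 2% trimmed mean of 150 and medians lay between 5.93 and 12.3, so the arrays had been scaled to 1 target, and a change in total RNA per cell cannot be seen. The number of arrays limits the precision. Per the labels' protocols, NuGEN Ovation kits amplified the RNA. Titles call the replicates biological, and p-values measure only the spread between these arrays.

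Signals were analysed as log2(signal + 16), which understates changes of dim genes, with limma 3.58.1 under R 4.3.3 (lmFit, then eBayes, trend on), Benjamini-Hochberg adjustment over all genes tested and a threshold of 0.05. The filter and the choice of probe set used the mean of the linear signal. The array holds 45101 probe sets, among them 64 controls, which entered no fit, and 932 with several genes, which entered only the fit over probe sets, which was added after the data were seen. A signal under 64 is called near background. All 31 symbols matched RefSeq (GRCm38.p6) by Entrez identifier. Python 3.11.15 with pandas 2.3.3, numpy 2.4.6 and matplotlib 3.10.9 did the rest. The fits were tested on simulated data with no effect of replicate number, so that test cannot judge the block where such an effect is present.

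Replicate numbers come from the titles. After subtraction of group means, arrays of equal number correlated at 0.436, 0.647 and 0.596 over 22518 probe sets, so the numbers were read as pairs. As deviations within a group sum to 0, lower correlations between different numbers are partly built in. The main fit has no block, and blocked values are given beside it. All listed genes with a probe set of their own are named, with Zfpm1, Gata1 and Klf1, and of the companion list the 6 genes with the smallest unadjusted p. The members, lists and rules were chosen with earlier results of these data known.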

Additional observations from a re-analysis of the deposited data

How the results depend on the processing

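With limma the count of the listed genes called was 0 under every setting tried except with both replicate 3 arrays left out and the block, where it was 2, so that leaving out 1 array or pair gave 0 to 2. With both replicate 3 arrays left out and the block, 339 of all genes tested were called. The count below control was within 1.5 times of 12 under every setting, 18 of 31 with no filter. The median member difference was -0.052 with no filter on dim probe sets, with or without the replicate block, and -0.32 with the mean of all probe sets of a gene; leaving out 1 array or pair gave -0.40 to -0.13. Over all genes, 17 were called, and 97 with the replicate block, 8 with a pseudocount of 1, 8 with the second brightest probe set, 4 in the brightest 25% of probe sets, 1 with no filter and 8 with no filter and the replicate block; leaving out 1 array or pair gave 1 to 339. None of the 20 listed genes changed its call with the replicate block. Uros turned to -0.057 with the mean of all probe sets and -0.13 with the second brightest. When 1 array or pair was left out, Uros ranged from -0.164 to 0.19, Cpox from -0.029 to 0.37, Slc25a37 from -0.13 to 0.69, Car2 from -0.14 to 0.31 and Hbb-bh1 from -1.04 to 0.28, each with a change of sign, and with no change of sign Alas1 ranged from -1.05 to -0.19, Epor from -1.28 to -0.28, Hbb-y from -2.25 to -0.63 and Tmcc2 from -0.87 to -0.06. The 3 shared alpha-globin probe sets were fitted only with and without the replicate block and with arrays or pairs left out, where their differences were -2.86 to -1.17, and in the fits without the block none of the 3 passed. The cause of these changes was not tested. MAS5 signals near background limit what can be said of the 12 genes under 64 throughout.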
